A study of Drosophila melanogaster with 6 samples.

Results

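The 8 genes described here, CG13053, CG31075, CG4382, Obp56a, Phk-3, CG1572, Ypel and Sod3, read lower on average in wing discs with an activated Egfr than in discs with a dominant negative Egfr. They were chosen from 10844 genes with a probe set of their own because of this difference in these same arrays. Their differences between the groups are therefore a description, and no p-value is read as support for them. Each gene was followed through 1 listed probe set. Sod3 has 2 more, so that the 8 genes have 10 of the 13966 probe sets tested.

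RNA was taken from wing imaginal discs of Drosophila melanogaster larvae in the third instar, the tissue that gives rise to the adult wing blade and dorsal thorax, and measured on 6 Affymetrix arrays. In 3 samples the 71B-Gal4 driver expressed an activated Egfr, which the labels call TOP (ACT1 to ACT3). In the 3 samples they were set against, the same driver expressed a dominant negative Egfr (DN1 to DN3). All 6 carried 71B-Gal4 and a transgene, and all flies were kept at 25 °C. No discs without a transgene were analysed here, so a lower value with activated Egfr and a higher value with dominant negative Egfr cannot be told apart. The ages of the larvae beyond their instar, and whether the 3 samples of a group came from separate animals, are not stated. The driver sets which cells make the transgene, and which disc cells those were is not stated. Each value is a log2 probe set value, and every difference is activated minus dominant negative.

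The receptor Egfr is the fly member of the epidermal growth factor receptor family. Ligand binding activates Ras and the kinase ERK, which enters the nucleus and acts on transcription factors of the ETS family. In the wing disc this signal helps to set up the notum and later the veins, and in many tissues it promotes growth and survival. A truncated receptor that binds but cannot signal blocks the pathway, which is how dominant negative forms act.

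By the families they are assigned to, 5 of the 8 products are enzymes or small carrier proteins outside the core of that pathway. Sod3 is a copper-zinc superoxide dismutase that acts outside the cell and turns superoxide into hydrogen peroxide. CG31075 is a predicted aldehyde dehydrogenase, an enzyme class that oxidises reactive aldehydes, and CG4382 is a predicted carboxylesterase, an enzyme class that cleaves ester bonds. Obp56a is an odorant-binding protein, a class of small secreted proteins with disulphide bonds that carry hydrophobic molecules and are also made outside olfactory organs. Phk-3, pherokine-3, belongs to the OS-D or chemosensory protein class, which is likewise small and secreted, and it has been found in the hemolymph of infected flies. Ypel belongs to the Yippee-like family of conserved zinc-binding proteins. No role is given here for CG13053 and CG1572.

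The median value of an array was 8.01 to 8.06 and its SD 1.53 to 1.66. A rough background level comes from 4 control probe sets for yeast transcripts, which averaged 5.54 to 5.96, and the lowest value of any of the 8 genes was 7.05, that of Ypel in ACT2. The 10 measured wing disc markers averaged 8.89 to 9.36 per array. The representative Egfr probe set (142966_at) differed by 1.52 and the other (151735_at) by -0.59, but without knowing whether they match transgene RNA neither can serve to check the groups. The groups did not separate the arrays: across all probe sets ACT3 was closer to DN3 (Pearson's r = 0.991) than to ACT1 (0.972) or ACT2 (0.965), and ACT1 was closest to DN1 (0.991). In the limma fit over all probe sets 0 were called at an adjusted p under 0.05, or 0%, and 308 (2.21%) had an unadjusted p under 0.05. The smallest adjusted p, over all probe sets, was 0.0949. It belongs to CG13053, which was chosen for its low difference in this same contrast, so nothing is read from it.

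For 6 of the 8 genes every activated array read below every dominant negative array. Over all 13966 probe sets this was so for 396, or 2.84%. The same contrast chose the genes, so nothing is read from the comparison of these shares. For Phk-3 and CG1572 the groups overlapped, as ACT3 read above DN1, so "consistently lower" does not hold for every activated against every dominant negative array. Each activated array of these genes did read below the dominant negative array of the same number, though whether the numbers mark pairs is not stated. All 8 were lower on average, as were 45.4% of all probe sets. The 8 differences ran from -1.46 to -0.66 with a median of -0.99, against a median of 0.02 over all probe sets. A difference of -1 or less was seen for 4 of the 8 genes and for 10 probe sets in all, or 0.0716%. Each sample is RNA of a mixture of disc cells, so fewer cells of a type and less RNA per cell cannot be told apart.

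**Figure D1:**
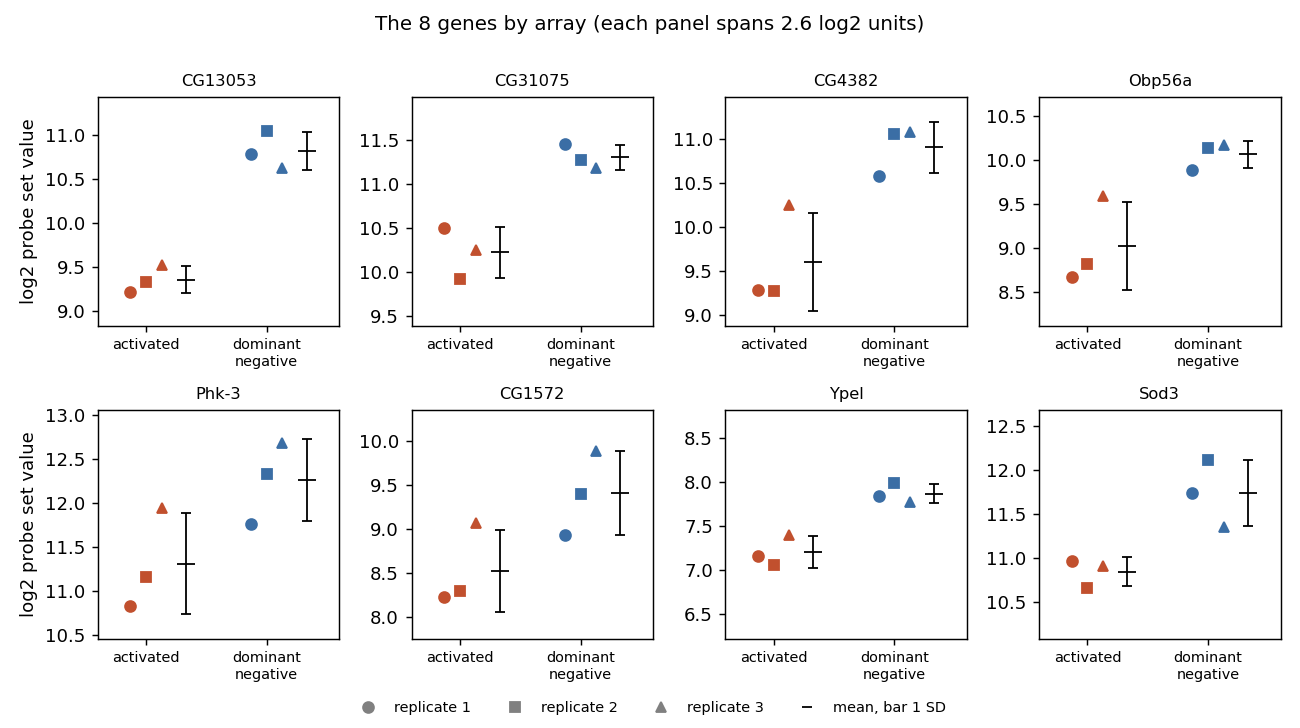
Log2 probe set value of the 8 genes (vertical axis) in the activated (left, orange) and dominant negative (right, blue) arrays, with a point per array shaped by replicate number and a bar for the mean ± 1 SD (n = 3). Every panel spans the same log2 range; groups are apart in 6 panels, and in Phk-3 and CG1572 the ACT3 point lies above the DN1 point.

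Among the enzyme genes, CG4382 read 9.28, 9.27 and 10.25 in ACT1, ACT2 and ACT3, against 10.57, 11.05 and 11.08 in DN1, DN2 and DN3. ACT3 stood almost a log2 unit above the other activated arrays, yet below DN1, the lowest dominant negative array. The means were 9.60 ± 0.56 with activated Egfr and 10.90 ± 0.29 with dominant negative Egfr (SD, n = 3 each), which differ by -1.30 (SE 0.27), or 2.47-fold lower with activated Egfr. It was the second lowest difference of all probe sets.

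CG31075, the predicted aldehyde dehydrogenase, read 10.50, 9.92 and 10.25 in ACT1, ACT2 and ACT3, against 11.46, 11.27 and 11.18 in DN1, DN2 and DN3. Here ACT1 was the highest activated array and DN1 the highest dominant negative array, and the groups were 0.68 apart at their nearest values. Its log2 difference was -1.08 (SE 0.17), from means of 10.23 ± 0.29 with activated Egfr and 11.31 ± 0.14 with dominant negative Egfr (SD, n = 3 each).

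Sod3, at its listed probe set 142399_at, read 10.96, 10.65 and 10.90 in ACT1, ACT2 and ACT3, against 11.74, 12.11 and 11.35 in DN1, DN2 and DN3. The activated arrays lay close together and the dominant negative arrays were more spread, without overlap. The log2 difference was -0.89 (SE 0.20), or 1.86-fold lower. At the other probe sets of Sod3 the groups overlapped, and their differences were of opposite sign. Probe set 142398_at read 9.98, 9.99 and 10.52 in ACT1, ACT2 and ACT3, against 10.26, 10.49 and 10.77 in DN1, DN2 and DN3. ACT3 lay above DN1 and DN2, and the log2 difference was -0.34 (SE 0.20). Each activated array of this probe set did read below the dominant negative array of the same number. Probe set 141909_at read 8.89, 9.17 and 8.76 in ACT1, ACT2 and ACT3, against 8.73, 8.60 and 8.89 in DN1, DN2 and DN3. This is a difference the other way, of 0.19 (SE 0.16), and the groups overlapped. The mean over the 3 probe sets was -0.35. Which Sod3 transcripts each probe set matches is not known here, so the difference is given for that 1 probe set and not for the gene as a whole.

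**Figure D2:**
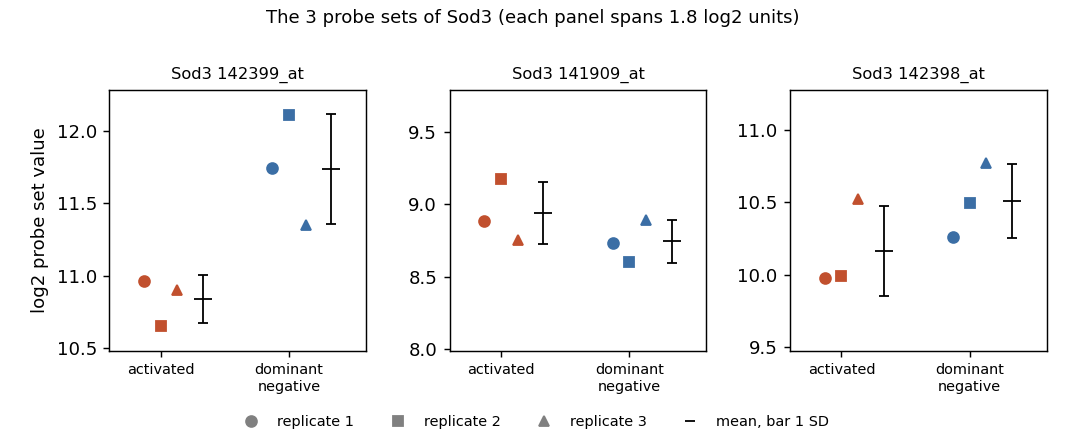
Log2 value of the 3 Sod3 probe sets (vertical axis) in activated (left, orange) and dominant negative (right, blue) arrays, with a point per array and the mean ± 1 SD (n = 3). The groups are apart at 142399_at (difference -0.89) and overlap at 141909_at (0.19) and 142398_at (-0.34).

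Of the secreted carrier proteins, Obp56a read 8.67, 8.81 and 9.59 in ACT1, ACT2 and ACT3, against 9.89, 10.13 and 10.16 in DN1, DN2 and DN3. ACT3 was again the high activated array, 0.30 below DN1. The means were 9.02 ± 0.50 with activated Egfr and 10.06 ± 0.15 with dominant negative Egfr (SD, n = 3 each), which differ by -1.04 (SE 0.23), or 2.06-fold lower.

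Phk-3 read 10.84, 11.16 and 11.95 in ACT1, ACT2 and ACT3, against 11.76, 12.33 and 12.68 in DN1, DN2 and DN3. ACT3 exceeded DN1 by 0.18, so the groups overlapped, and the spread within each group was over a log2 unit in activated and 0.92 in dominant negative discs. The log2 difference was -0.95 (SE 0.31), from means of 11.31 ± 0.57 with activated Egfr and 12.26 ± 0.46 with dominant negative Egfr (SD, n = 3 each). With quantile normalization, which gives the arrays 1 distribution, ACT3 read 11.79 and DN1 11.83, so that the groups were just apart and the difference was -0.87.

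Ypel read 7.15, 7.05 and 7.40 in ACT1, ACT2 and ACT3, against 7.84, 7.98 and 7.77 in DN1, DN2 and DN3. It had the smallest difference of the 8 genes, -0.66 (SE 0.15), but also a small spread, so its groups stayed 0.37 apart. By size of difference alone it stood 58th from the lowest of all probe sets.

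Of the uncharacterised genes, CG13053 read 9.22, 9.33 and 9.52 in ACT1, ACT2 and ACT3, against 10.78, 11.05 and 10.62 in DN1, DN2 and DN3. It had the lowest difference of all probe sets and, among the 8 genes, the widest gap, 1.10 between ACT3 and DN3. The means were 9.36 ± 0.15 with activated Egfr and 10.82 ± 0.21 with dominant negative Egfr (SD, n = 3 each), which differ by -1.46 (SE 0.16), or 2.75-fold lower. CG1572 read 8.22, 8.29 and 9.06 in ACT1, ACT2 and ACT3, against 8.94, 9.40 and 9.89 in DN1, DN2 and DN3. ACT3 exceeded DN1 by 0.13, and the log2 difference was -0.88 (SE 0.28). The means of CG1572 were 8.53 ± 0.47 with activated Egfr and 9.41 ± 0.47 with dominant negative Egfr (SD, n = 3 each), so both groups were about equally spread.

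Within the groups the 8 genes did not all vary alike. To set the difference between groups aside, each value was taken as its deviation from the mean of its own group. CG4382, Obp56a, Phk-3 and CG1572 moved alike: all 4 were highest in ACT3 among the activated arrays, and all 4 were lowest in DN1 and highest in DN3 among the dominant negative arrays. Pearson's r of the deviations over the 6 arrays was 0.86 to 0.98 for their 6 pairs. CG13053, Ypel and Sod3 shared another pattern, highest in DN2 and lowest in DN3 within the dominant negative discs, with r of 0.67 to 0.81 for their 3 pairs. Between these sets r ran from -0.27 to 0.76, and Ypel was the closest of the 3 to the first set (0.43 to 0.76). CG31075 followed neither, with r of -0.42 to 0.48 with the other 7 genes and its highest values in ACT1 and DN1. The sets were read from these values, each r rests on 6 arrays that share their array effects, and none was tested. Because the deviations of a gene cancel out within each group, fewer than 6 of its values vary freely.

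**Figure D3:**
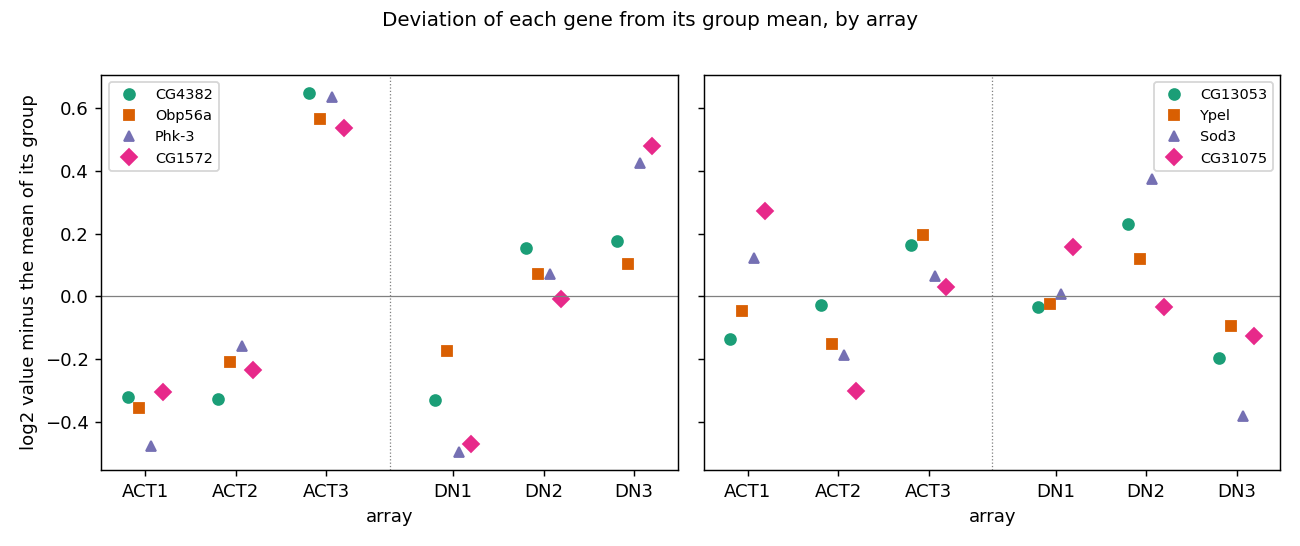
Deviation of each gene's log2 value from the mean of its group (vertical axis) by array (horizontal axis), for CG4382, Obp56a, Phk-3 and CG1572 (left panel) and CG13053, Ypel, Sod3 and CG31075 (right panel). The left set lies at 0.54 to 0.65 in ACT3 and at -0.50 to -0.17 in DN1; the right set lies at -0.38 to -0.09 in DN3.

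ACT3 was the highest activated array for 6 of the 8 genes, where it was so for 31.1% of all probe sets, and the lowest for 0 of them (45.2% of all probe sets). After quantile normalization ACT3 was still highest for 6 genes, and 7 genes had groups without overlap. Without ACT3 the groups were apart for all 8 genes, as they were without DN1, and for 6 without any other array. Leaving out an array raises such counts by itself: over all probe sets they ran from 792 to 1382, against 396 with 6 arrays.

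CG4382, Obp56a, Phk-3 and CG1572 were highest in ACT3 among the activated arrays and lowest in DN1 among the dominant negative arrays. The summed signals of salivary gland, fat body, tracheal and wing disc markers had this order too. Of the wing disc markers vg, ap, en, salm, zfh2 and tsh followed it singly. By contrast nub, ptc and rn were highest in ACT1 and lowest in DN3 within their groups, and dpp was highest in ACT3 and lowest in DN3. Of the fat body markers, Lsp2 and apolpp followed the order of the sums singly, and Fbp1, Fbp2, FASN1 and Col4a1 did not. Of the tracheal markers, Gasp, verm and pio followed it, and btl and serp did not. All 8 measured salivary gland markers (of 8 listed) and all 6 measured fat body markers (of 10) had a negative difference, with medians of -0.67 and -0.41, and 0 of either list were called by limma. The summed signal of the salivary gland markers, on the linear scale, was 3476, 4433 and 10953 in ACT1, ACT2 and ACT3, against 4400, 13436 and 14122 in DN1, DN2 and DN3. It was thus high in ACT3, DN2 and DN3 and low in the other arrays. The fat body markers summed to 2792, 4873 and 7053 in ACT1, ACT2 and ACT3, against 4999, 6257 and 9491 in DN1, DN2 and DN3. In the fat body list Lsp2 had the highest signal in ACT1, ACT3 and DN3, and Fbp1 in ACT2, DN1 and DN2. Sgs7 had the highest signal of the salivary gland list in every array, so the salivary gland sum mostly follows that gene. The glue protein genes Sgs3, Sgs5, Sgs7 and Sgs8, and Eig71Ee, each had their highest values in ACT3, DN2 and DN3. Sgs4 did not, with 7.60 in ACT3 below 7.63 in DN1, nor did Sgs1, which was lowest in DN2 at 8.21. The defining marker fkh, a transcription factor of the salivary gland, did not follow this order either. It read 8.74, 8.48 and 8.25 in ACT1, ACT2 and ACT3, against 8.83, 8.25 and 8.46 in DN1, DN2 and DN3. No marker can be read as 0 on this scale. The part of these tissues in the differences of the 8 genes was not tested.

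**Figure D4:**
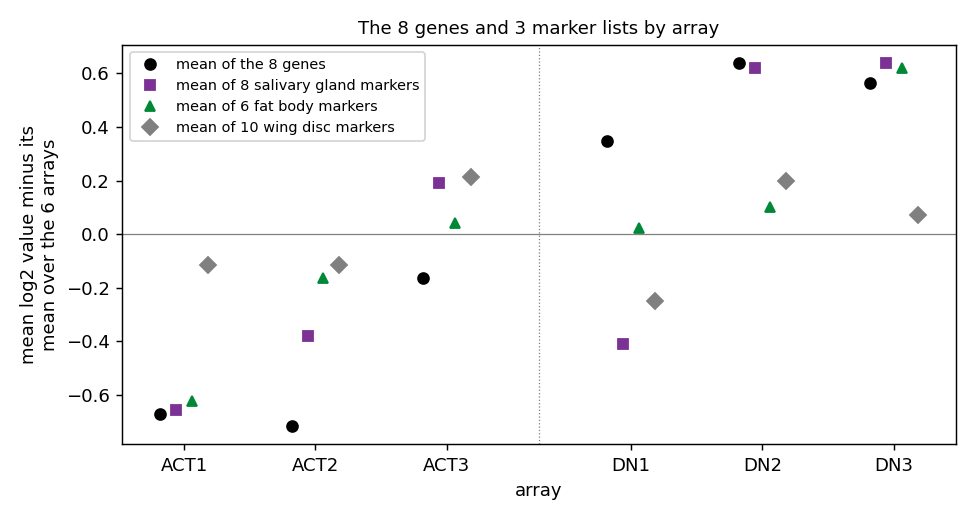
Mean log2 value minus its mean over the 6 arrays (vertical axis) by array (horizontal axis), for the 8 genes and for the salivary gland, fat body and wing disc marker lists. The mean of the 8 genes was 9.35, 9.31 and 9.87 in ACT1, ACT2 and ACT3 and 10.37, 10.67 and 10.59 in DN1, DN2 and DN3, so ACT3 is the highest activated array for the 8 genes and for all 3 marker lists.

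Some other marker lists had lower sums with activated Egfr. Tracheal markers summed to 8558 to 11803 in activated and 10076 to 14698 in dominant negative discs. Of 7 listed, 5 were measured, and 5 of 5 were lower with a median of -0.41. Gasp differed by -0.92, verm by -0.66 and serp by -0.41, while btl (-0.05) and pio (-0.07) lay near 0. Myoblast markers summed to 1159 to 1310 in activated and 1498 to 1682 in dominant negative discs, a list in which 4 of 4 measured markers were lower (median -0.29). Cuticle genes summed to 2476 to 2964 in activated and 3607 to 4462 in dominant negative discs, with 3 of 5 lower and a median of -0.49. Myoblast and cuticle sums thus did not overlap between the groups. A linear sum follows its genes of highest signal, in the cuticle list obst-B (-0.96) and Cht5 (-0.49). Edg91 differed by -0.61, Edg78E by 0.01 and Edg84A by 0.02. Of all single probe sets, 2.84% had groups apart with activated arrays lower, and no such share was taken for sums. Hemocyte markers summed to 3269 to 3619 in activated and 4013 to 4432 in dominant negative discs, also without overlap. Of the 8 hemocyte markers, however, 3 were higher and 5 lower with a median of -0.02. Among them SPARC differed by -0.87 and PPO2 by 0.39. Glial and neuronal markers summed to 641 to 797 in activated and 686 to 829 in dominant negative discs, and wing disc markers to 6355 to 7247 in activated and 5672 to 7406 in dominant negative discs. In these lists, too, 0 markers were called, and their part in the differences of the 8 genes was not tested.

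Most relatives of the 8 genes had differences near 0. Of the 35 other measured odorant-binding protein genes, 20 had a positive and 15 a negative difference, with a median of 0.02 and 0 called by limma. The median over all probe sets was also 0.02. Most of these 35 genes averaged below the array medians, and Obp57c, Obp69a and Obp84a read near background level. A difference near 0 says little for genes of such low signal. Obp99a averaged 10.25 ± 0.24 with activated Egfr and 10.56 ± 0.18 with dominant negative Egfr (SD, n = 3 each), which differ by -0.31 (SE 0.17), with the groups apart. The genes lush and Obp56e had differences of 0.24 (SE 0.15) and 0.14 (SE 0.12), with activated arrays above all dominant negative arrays, and lush read near background level. Over all probe sets, 3.39% had activated arrays above all dominant negative arrays. The lowest of the other family members was Obp99b at -0.57, named after its values were seen. The others of highest signal, Obp99a, Obp99b and Obp99c, all had a negative difference, that of Obp99c being -0.23. The groups of Obp99b and of Obp99c overlapped. Obp47b and Obp28a, next in signal, had differences of 0.13 and 0.02. None of these passed the limma threshold (adjusted p = 0.9999 for Obp99a, lush and Obp56e). In the OS-D class the other measured genes were EbpIII, at -0.20 (SE 0.19), and a10, at -0.03, both with overlapping groups.

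Among superoxide dismutases and peroxide-removing enzymes, 8 of the 9 measured genes other than Sod3 had a negative difference, but the median was only -0.07. Sod2, the mitochondrial superoxide dismutase, differed by -0.01 and the catalase gene Cat by -0.22. The thioredoxin gene Trx2 averaged 11.62 ± 0.17 with activated Egfr and 11.99 ± 0.12 with dominant negative Egfr (SD, n = 3 each), which differ by -0.37 (SE 0.14). Its groups were apart, but it did not pass (limma adjusted p = 0.9999). The mitochondrial peroxiredoxin gene Prx3 had the opposite sign, 0.17 (SE 0.12), also without overlap.

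A list of oxidative stress and glutathione genes had 13 of 18 measured members lower and 5 higher, with a median of -0.11 and 0 called. Its lowest member was GstE1, a glutathione transferase gene that read 8.61, 7.99 and 8.39 in ACT1, ACT2 and ACT3, against 9.05, 8.94 and 9.18 in DN1, DN2 and DN3. All activated arrays were below all dominant negative arrays, with a log2 difference of -0.73 (SE 0.18), larger than that of Ypel. The transferase genes GstE3 and GstD1 were apart too, at -0.26 (SE 0.13) and -0.16 (SE 0.13). The limma adjusted p was 0.9999 for GstE1, GstE3 and GstD1.

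The 5 measured aldehyde dehydrogenase genes other than CG31075 lay between -0.10 and 0.11, and the one of smallest p, CG8665, had 0.11 (SE 0.18). The 26 measured carboxylesterase family genes other than CG4382 had a median of 0.01, with 14 higher and 12 lower, a range of -0.37 to 0.24 and 0 called. Only Jhedup, at 0.17 (SE 0.13) and near background level, had groups without overlap in that family. The other member of the yippee list was not analysed here. CG13053 carries a number from a run of gene models, CG13040 to CG13069, of which, with retinin, 27 others were measured. Their median was -0.02, with 12 higher and 15 lower. CG13064 at -0.28 (SE 0.13) and CG13041 at -0.22 (SE 0.15) were lower without overlap, and 0 of the 27 were called.

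**Figure D5:**
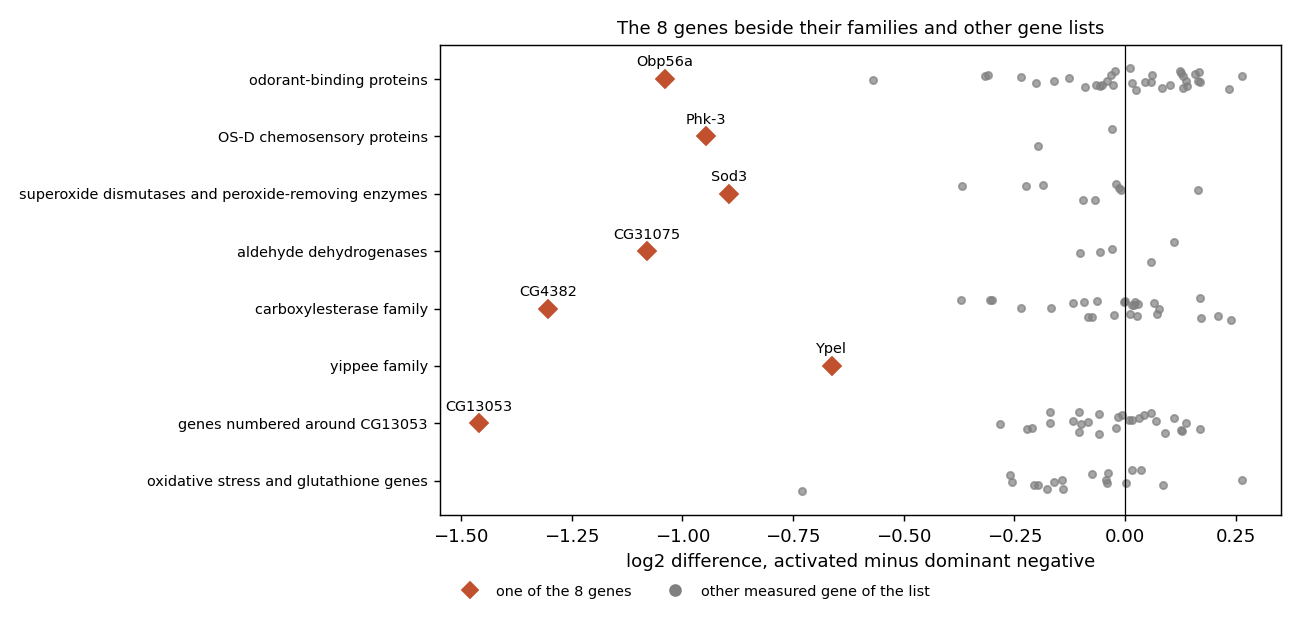
Log2 difference, activated minus dominant negative (horizontal axis), of the 8 genes (orange diamonds) and of the other measured genes of each list (grey points; vertical position within a list has no meaning). CG1572 is in no list; Ypel is alone in its list, and the other 6 diamonds lie left of all grey points of their own list, as their choice for a low difference would give.

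Other genes had differences as low as these. Outside the 8, the lowest differences among genes with groups apart were those of the cuticle protein gene Cpr65Ec (-1.16, SE 0.28), the fat body gene Fbp2 (-1.07, SE 0.24), the chitin-binding protein gene obst-B (-0.96, SE 0.20), the predicted phosphoserine aminotransferase gene CG11899 (-0.92, SE 0.22) and the chitin-binding protein gene Gasp (-0.92, SE 0.28). Cpr65Ec read 8.80, 7.96 and 9.17 in ACT1, ACT2 and ACT3, against 9.95, 9.88 and 9.58 in DN1, DN2 and DN3. These 5 lie within the range of the 8 genes, so the 8 are not the lowest genes as a set, and none of the 5 passed (limma adjusted p = 0.9999 each).

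The genes whose deviations were most like the mean deviation of the 8 were CG1371 (r = 0.996), Doa (0.993), l(2)k09848 (0.993), Nca (0.991) and CG14464 (0.991), each over 6 arrays. Genes with larger deviations weigh more in that mean. As the 8 did not all vary alike, likeness to it is not likeness to each of them. They were sought among 945 probe sets of other genes with a range of at least 1 over the arrays, and 81 of these had r of at least 0.95. Doa encodes a protein kinase and Nca a calcium-binding protein. Being alike within the groups did not always bring a like difference between them. CG1371 differed by -0.14 (SE 0.27) and Doa by 0.05 (SE 0.33). By contrast l(2)k09848 differed by -0.54 (SE 0.23), Nca by -0.28 (SE 0.29) and CG14464 by -0.53 (SE 0.32). By size of difference l(2)k09848 and CG14464 stood 135th and 140th from the lowest of all probe sets. Doa read 8.78, 8.76 and 10.09 in ACT1, ACT2 and ACT3, against 8.86, 9.42 and 9.23 in DN1, DN2 and DN3, so ACT3 was its highest array of all. Without ACT3 its difference was -0.39, and without DN1 it was -0.11.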

How the data were processed

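The authors summarised each array's probe sets to log2 values with GCRMA, per the submitters' processing notes; the sources used here give neither its version nor a genome build. Values of 4.72 to 15.08 show the log2 scale. Of 14010 probe sets, 44 controls were left out. The probe table names 1 gene for 12443 of the rest, several for 327 and none for 1196; a RefSeq gene table (Release 6) changed 0 symbols. Groups follow the labels, and 0 columns lacked a sample. All 13966 probe sets were fitted with limma 3.58.1 in R 4.3.3 (lmFit, eBayes, two-sided, Benjamini-Hochberg over all), and the step was tested on simulated data. An exact permutation test of 3 against 3 cannot go below 0.1. The number of arrays limits the precision, and p-values reflect the spread between samples that may be technical replicates. The 8 genes, the 8 gene lists and the 8 marker lists were chosen with earlier results of these data known. In a list a gene has its probe set of highest mean. Named by rule were, per gene list, up to 3 genes with groups apart or else the 1 of smallest p, the 5 lowest genes with groups apart and the 5 most like the 8; markers and other genes were named after their values were seen. Alternatives were a filter at a mean of 6, median centring, quantile normalization, a trend with robust prior, array weights, a replicate block and leaving out each array. The motif search in promoters was not run. Figures used matplotlib 3.10.9.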

Additional observations from a re-analysis of the deposited data

How the results depend on the processing

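The median difference of the 8 genes was -0.99 and lay between -1.21 and -0.90 when 1 array was left out; each of the 8 stayed lower under every alternative run. Leaving out 1 array moved Phk-3 between -1.26 and -0.71, CG1572 between -1.15 and -0.64, and Sod3 142398_at between -0.52 (without ACT3) and -0.21. With the mean of its 3 probe sets, chosen after seeing the data, Sod3 had -0.35 in place of -0.89. The count of called probe sets was 0 in every alternative except array weights, where it was 1 (CG13053), and leaving out 1 array gave 0 each time. CG13053 was chosen for its low difference in these same arrays, so nothing is read from that call. The count with groups apart and activated discs lower was 792 to 1382 with 1 array left out, against 396, since fewer arrays overlap less. The median of the odorant-binding list was 0.093 with array weights and -0.031 to 0.116 with 1 array left out, run after seeing the data. With array weights EbpIII had 0.040 and Doa -0.26; with 1 array left out CG8665 had -0.018 to 0.267, CG1371 -0.473 to 0.066 and Doa -0.39 to 0.27. The cause of these sign changes was not tested. The groups share replicate numbers, and deviations of same-numbered arrays correlated at 0.61, -0.08 and 0.60 for replicates 1, 2 and 3. Arrays of replicates 1 and 3 thus varied alike across the groups, and those of replicate 2 did not. Whether the numbers mark pairs or batches is not stated and was not tested, and the main fit did not use them. With a replicate block 0 probe sets were called and the differences were unchanged by construction.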

Other observations

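The genomic neighbours of the 8 genes had smaller differences than the 8, as choosing the 8 for a low difference would give. In the RefSeq gene table, the nearest measured protein-coding gene on either side of each gives 16 neighbours, a list drawn up after the values were seen. Of these 8 were higher and 8 lower in activated discs, with differences from -0.35 to 0.32, and 0 were called by limma. The groups were apart for CG34247, next to CG13053, and CG14253, near CG31075. CG34247 read 9.37, 9.28 and 9.27 in ACT1, ACT2 and ACT3, against 9.93, 9.55 and 9.50 in DN1, DN2 and DN3, a log2 difference of -0.35 (SE 0.15). CG14253 had a difference of -0.14 (SE 0.12), a level near 6.27 in activated and 6.41 in dominant negative discs. Obp56c, the nearest measured gene after Obp56a, had a difference of 0.16 (SE 0.13).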
